A study of Chlamydomonas reinhardtii with 9 samples.

Results

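The abundant steady loci are those whose transcript level was high and nearly the same in all 9 cultures of the study. They were chosen by 2 measured values. Their mean level over the 9 libraries was at least 100 CPM (read counts scaled to a common library size, with each library total corrected for composition by TMM factors), and their coefficient of variation (CV, the SD divided by the mean) was at most 10%. Of 17737 loci in the count files, 1519 reached that level, and 213 of these met the limit on the CV. The choice rests on the same libraries as the values that follow. Levels, spreads and differences between groups are therefore given as a description, with no test of the steady loci as a set. Threshold counts and intervals of the steady loci come from fits to all loci and stand beside the share over all loci. The limit on the CV bounds them, and nothing is read from them.

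The cultures were Chlamydomonas reinhardtii, a unicellular green alga, of the wild-type strain CPCC11, in an artificial freshwater medium for 2 h. The 3 groups were controls, cultures with 0.05 nM methylmercury (MeHg) and cultures with 0.5 nM MeHg, each of 3 biological replicates. RNA was measured by sequencing of stranded mRNA libraries, with 15138888 to 20433375 reads assigned to loci per library. The samples at 0.05 nM are described in other words in their labels than those of the other groups, and a difference in how or when they were handled is confounded with that dose: the 2 cannot be told apart.

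Methylmercury is an organic form of mercury that enters cells and binds thiol groups of proteins and of small molecules such as glutathione. Abundant transcripts that vary little between conditions are commonly called housekeeping transcripts, and they serve as internal references when the levels of other transcripts are compared between samples. In sequencing data a level is always relative to the rest of the library, so a locus can be called steady only on a stated scale.

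The count files give loci by identifier and pair none with a gene name. The RefSeq gene table of assembly version 5.5 matched 155 of the 213 steady loci by locus tag and held 0 symbols other than the locus tag. Loci are therefore given by identifier, with no name or role. Of the steady loci, 160 carry the Cre numbering, in which the first number is that of the chromosome, and 53 are g numbers. As a share of the abundant loci, the steady ones made up 13.5% with Cre numbering and 15.8% with g numbers. By chromosome number the share was highest for Cre15, with 4 of 11 abundant loci (36.4%), then Cre04 with 5 of 25 and Cre03 with 21 of 110 (19.1%). It was lowest for Cre05, with 2 of 36 (5.56%), Cre11 with 2 of 26 (7.69%) and Cre14 with 2 of 25. Several of these counts are small.

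The steady loci covered most of the range of high levels, but not its top. Their means ran from 100.3 to 4581 CPM with a median of 197 CPM, close to the median of 191 CPM of the other 1306 abundant loci. From 100 to 200 CPM 109 of 804 abundant loci were steady (13.6%), from 200 to 500 CPM 69 of 418 (16.5%), and from 500 to 1000 CPM 22 of 136 (16.2%). At 1000 CPM and more it was 13 of 161 (8.07%). The median CV of all abundant loci in these ranges was 21.8%, 18.9%, 18.3% and 15.4%, and so was lowest at the top. The most abundant steady locus, g274, ranked 16 among all loci, and the loci above it, which reached 8022 CPM, were all outside the limit on the CV.

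**Figure D1:**
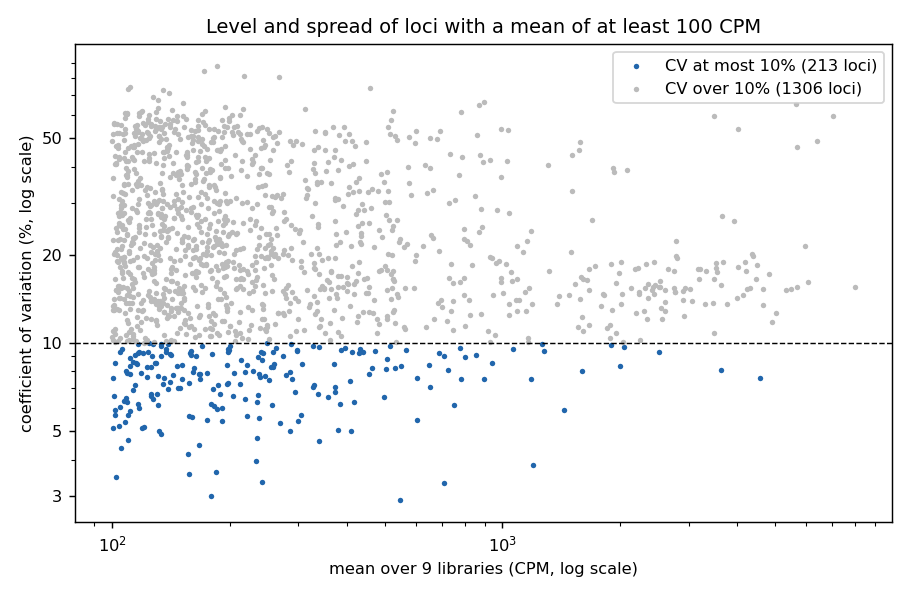
Mean level over 9 libraries (CPM, log scale) against the coefficient of variation (percent, log scale) of 1519 abundant loci, 1 point per locus, with the 10% limit dashed. The 213 steady loci lie below the limit at means from 100.3 to 4581 CPM, and 13 of them have a mean of 1000 CPM or more.

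The spread of the steady loci was small and still larger than counting error alone gives. Their CV had a median of 7.81% and a lowest value of 2.91%, against a median of 21.7% in the other abundant loci. Poisson counting error at these depths comes to a median CV of 1.71% in the steady loci. In 1 of the 213 the observed CV was within 1.5 times its counting error. The highest of the 9 libraries exceeded the lowest by a median factor of 1.27 in the steady loci and of 1.89 in the other abundant ones. This factor was at most 1.2 for 50 steady loci and above 1.4 for 3.

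The steadiest locus was Cre13.g603700. Its level was 559, 544 and 578 CPM in the controls, 549, 555 and 533 CPM at 0.05 nM, and 534, 526 and 540 CPM at 0.5 nM. The groups averaged 560.4 ± 16.9, 546 ± 11.4 and 533 ± 6.87 CPM (SD, n = 3 each), in the order of dose. The libraries at 0.5 nM all lay below the controls, by a few percent, while those at 0.05 nM overlapped both other groups.

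g16122 followed, with 175, 179 and 180.4 CPM in the controls, 187, 177 and 174 CPM at 0.05 nM, and 189 (replicate 1), 175 and 179 CPM at 0.5 nM. Its 3 groups overlapped. Its CV was 3.01%, against a counting error of 1.79%. Cre02.g116750 gave 671, 712 and 721 CPM in the controls, 689.7, 721 and 731 CPM at 0.05 nM, and 690.2, 702 and 748 CPM at 0.5 nM. Replicate 1 was the lowest and replicate 3 the highest library in each of its groups.

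g16866 (mean 242 CPM, CV 3.35%) was lowest in control replicate 1 at 225 CPM and highest in replicate 1 at 0.5 nM at 250.5 CPM. Cre02.g099950 (102 CPM, 3.49%) averaged 103.8 ± 3.61 CPM in the controls, 103.7 ± 2.78 CPM at 0.05 nM and 98.7 ± 1.97 CPM at 0.5 nM (SD, n = 3 each). In Cre06.g279400 (158 CPM, 3.59%) the controls lay apart from the treated libraries although the spread was small. It had 164 ± 4.35 CPM in the controls, 156 ± 2.31 CPM at 0.05 nM and 153 ± 1.93 CPM at 0.5 nM. All 6 treated libraries, at 151 to 158 CPM, lay below the lowest control at 160.4 CPM, and the doses overlapped. Its log2 differences against control were -0.09 at 0.05 nM and -0.10 at 0.5 nM. Scaled by library totals alone, they were 0.17 and 0.19. Cre06.g281100 (184 CPM, 3.62%) had its highest value in control replicate 1, at 199 CPM, and 177 to 189 CPM in the other libraries. Cre17.g698000, at a mean of 1198 CPM the most abundant of the 8 loci of lowest CV, ran from 1112 CPM in replicate 2 at 0.5 nM to 1254 CPM in control replicate 3.

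**Figure D2:**
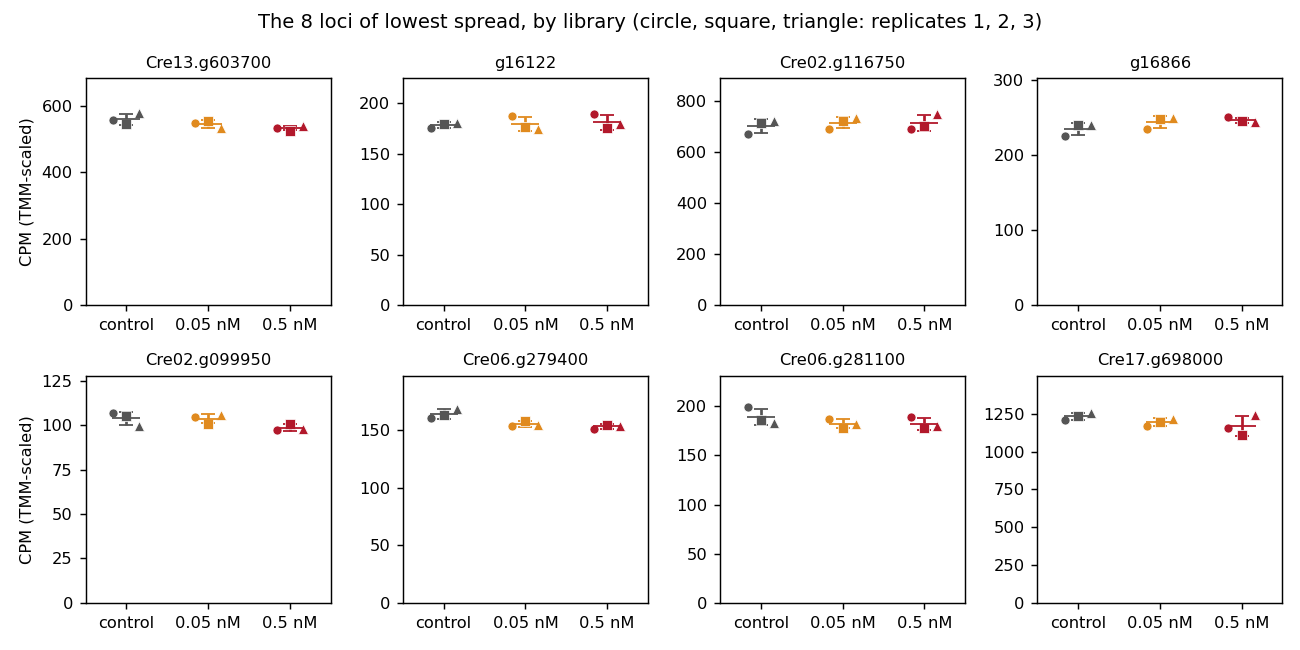
Levels (TMM-scaled CPM, axes from 0) of the 8 loci of lowest CV in the 3 groups, 1 symbol per library, with the group mean as a bar and the SD as error bars (n = 3). In Cre06.g279400 the treated libraries lie at 151 to 158 CPM and the controls at 160.4 CPM or more.

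A ratio between 2 loci of the same library does not depend on how libraries are scaled. The counts of Cre13.g603700 divided by those of Cre17.g698000 gave 0.463, 0.441 and 0.461 in the controls, 0.471, 0.465 and 0.438 at 0.05 nM, and 0.461, 0.473 and 0.435 at 0.5 nM. The 3 groups overlapped, and the ratio had a CV of 3.17%. Divided by Cre02.g116750, the same locus gave 0.832, 0.765 and 0.802 in the controls, 0.796, 0.770 and 0.729 at 0.05 nM, and 0.774, 0.7497 and 0.722 at 0.5 nM. This ratio had a CV of 4.58%, above the CV of either locus alone, and its groups also overlapped. The 3 loci in these ratios were those of lowest CV among the steady loci with a mean of at least 500 CPM. A small spread of their ratios therefore follows from the choice, and nothing is read from it or from the overlap. Measured against the geometric mean of all steady loci in each library, the SD of the log2 ratio had a median of 0.10 in the steady loci and 0.30 in the other abundant loci. That reference is made of loci chosen for low spread in the same libraries. A smaller SD in the steady loci therefore follows from the choice, and nothing is read from it. The SD was lowest in Cre17.g698000, at 0.030, then Cre06.g279400 at 0.037 and Cre13.g603700 at 0.039. These 3 were picked out after their values were seen.

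Among the steady loci with the highest means, g274 had 4195, 4428 and 4609 CPM in the controls, 4530.1, 4471 and 4579 CPM at 0.05 nM, and 4425, 4539 and 5449.7 CPM at 0.5 nM. The last of these, replicate 3, stood above the other 8 libraries, which overlapped between groups. Cre13.g590500 averaged 3958 ± 154 CPM in the controls, 3492 ± 31.9 CPM at 0.05 nM and 3445 ± 287 CPM at 0.5 nM (SD, n = 3 each). Its libraries at both doses all lay below the 3 controls, though replicate 3 at 0.5 nM, at 3775 CPM, came close to the lowest control at 3788 CPM.

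g5059 (mean 2521 CPM), g877 (2006 CPM), g12607 (1902 CPM) and g15094 (1601 CPM) had CVs of 8.001% to 9.82%. In g877 the controls stood at 1918, 2190.0 and 2313 CPM, the libraries at 0.05 nM at 1908, 1959 and 1916 CPM and those at 0.5 nM at 1797, 1920.0 and 2136 CPM. In each of these 4 loci control replicate 1 lay below control replicates 2 and 3. Cre06.g308250 (2051 CPM) and Cre06.g259900 (1438 CPM) had replicate 3 at 0.5 nM as their highest library, at 2459.9 and 1603 CPM, and replicate 2 of the same dose as their lowest, at 1763 and 1300.3 CPM. For these loci the spread within the 0.5 nM group was larger than the difference between group means.

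Near the limits the values lay close together. Just inside the limit on the CV were Cre01.g011500 (9.954%), Cre13.g566650 (9.985%) and g15721 (9.994%), and just outside it were Cre07.g341100 (10.03%), Cre01.g035450 (10.04%) and Cre17.g726750 (10.07%). Just inside the minimum level were Cre02.g073200 (100.3 CPM), Cre12.g519200 (100.4 CPM) and Cre01.g021700 (101.3 CPM), and just outside it, with a CV within the limit, were Cre16.g648700 (99.4 CPM), Cre14.g619550 (99.3 CPM) and g17751 (99.3 CPM).

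The small spread of the steady loci had a part between groups and a part within them. Pooled within groups, the CV had a median of 6.25% in the steady loci and 11.9% in the other abundant loci. The difference between groups held a median of 36.7% of the sum of squares in the steady loci, against 81.6% in the other abundant loci. Of the other 1306 abundant loci, 478 (36.6%) also had a within-group CV of at most 10%. In 82 of the 213 steady loci, and in 951 of the other 1306 abundant loci, more than 50% of the sum of squares lay between groups.

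Single libraries showed in many steady loci at once. Replicate 3 at 0.5 nM was the highest of the 9 libraries in 55 steady loci and the lowest in 28. Control replicate 1 was the lowest in 53 and the highest in 33, and control replicate 3 the highest in 47. Replicate 2 at 0.5 nM was the lowest in 44 and the highest in 5. Replicate 3 at 0.05 nM was the highest in 3. Such counts were not made for other loci, so the pattern is not given as particular to the steady ones. The median deviation from a locus's own mean ran from -0.06 on the log2 scale in replicate 1 at 0.5 nM to 0.07 in control replicate 3. In a principal component analysis of their log2 levels, the first component held 32.7% of the variance and set the 3 controls apart from the 6 treated libraries. The second held 29.6%, with control replicate 1 at one end and replicate 3 at 0.5 nM at the other. Alignments at more than 1 place, which were not assigned to loci, came to 24.2%, 27.04% and 43.7% of the assigned count in the controls. They came to 19.3%, 19.01% and 21.6% at 0.05 nM and to 22.5%, 20.8% and 22.99% at 0.5 nM. All 3 controls thus lay above the 6 treated libraries, as on the first component. The part of these alignments in the values above was not tested.

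**Figure D3:**
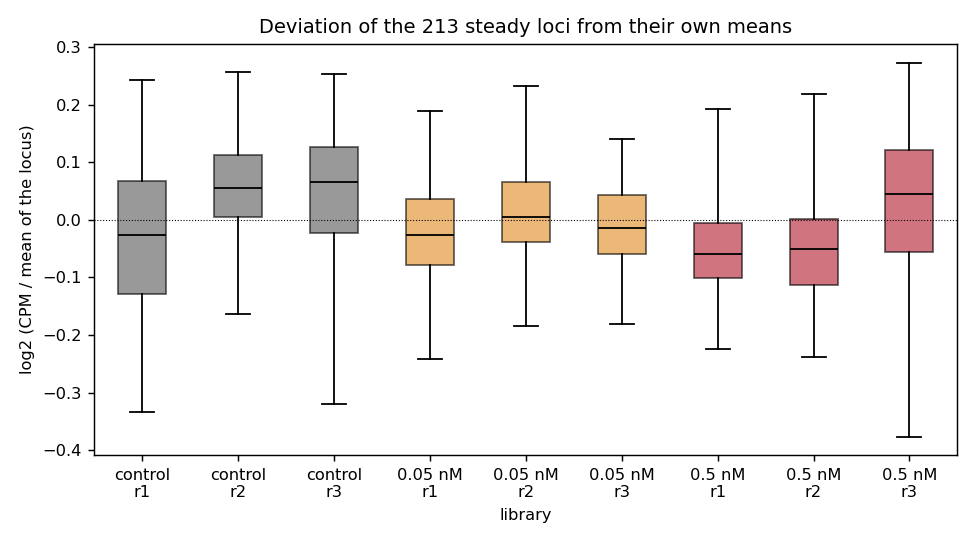
Log2 of the level over the locus's own mean for the 213 steady loci in each of the 9 libraries. Boxes span the quartiles with the median as a line, and whiskers reach the lowest and highest locus. Control replicate 1 and replicate 3 at 0.5 nM have the widest boxes, and the medians lie between -0.06 and 0.07.

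At 0.05 nM against control, the log2 differences of the steady loci ran from -0.27 to 0.23, with a median of -0.05, against a range of -3.70 to 4.49 and a median of 0.05 over the 14778 loci tested. In edgeR's quasi-likelihood fit with Benjamini-Hochberg adjustment, 7 steady loci passed the threshold of 0.05, 1 higher and 6 lower at 0.05 nM. Of all loci tested 52.2% passed, 27.2% higher and 25% lower. The other 1306 abundant loci had a median difference of -0.33, and 107 of them passed as higher and 677 as lower. With the replicate number as a block 29 steady loci passed, 10 higher and 19 lower, against 63.6% of all loci. RLE factors gave 13 steady loci, all lower, against 52.2% of all loci, and DESeq2 gave 33, 2 higher and 31 lower, against 50.4%. The limit on the CV bounds these differences, so nothing is read from the counts. The libraries of the groups did not overlap in 74 steady loci, against 60.2% of all loci tested. The 95% interval of the difference lay within 0.5 on the log2 scale for all 213 steady loci, for 23.1% of the other abundant loci and for 20.5% of all loci.

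The lowest differences at 0.05 nM belonged to Cre07.g356400 and Cre17.g723500. Cre07.g356400 had 195, 187 and 177 CPM at 0.05 nM, against 215.9, 215.8 and 238 CPM in the controls, a log2 difference of -0.27 ± 0.10 (SE). Cre17.g723500 had 108, 115 and 110.4 CPM at 0.05 nM, against 131, 127 and 137 CPM in the controls, a difference of -0.25 ± 0.09. In both the groups did not overlap. At the other end, Cre06.g282000 had 314, 294 and 313 CPM at 0.05 nM, against 263, 272 and 246 CPM in the controls (0.23 ± 0.09). Cre06.g308500 had 890.5, 831 and 834 CPM at 0.05 nM, against 741, 716 and 709.7 CPM in the controls (0.23 ± 0.11). The 1 locus counted as higher was Cre03.g188250, named here after its value was seen. It had 276, 264 and 266 CPM at 0.05 nM, against 231.2, 230.9 and 223 CPM in the controls (0.23 ± 0.09).

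At 0.5 nM against control, the log2 differences of the steady loci ran from -0.31 to 0.30, with a median of -0.06, against a median of 0.07 over all loci tested. Of the 213, 21 passed the edgeR threshold, 4 higher and 17 lower at 0.5 nM. Of all loci tested 60.3% passed, 31.6% higher and 28.7% lower. The other 1306 abundant loci had a median difference of -0.48, and 110 of them passed as higher and 804 as lower. With the replicate block 48 steady loci passed, 11 higher and 37 lower, against 69.6% of all loci. RLE factors gave 34, 2 higher and 32 lower, against 60% of all loci, and DESeq2 gave 56, 3 higher and 53 lower, against 58.4%. The same bound holds for these counts. The groups did not overlap in 73 steady loci, against 63.1% of all loci tested. The 95% interval lay within 0.5 on the log2 scale for 210 steady loci (98.6%), for 16.003% of the other abundant loci and for 17.8% of all loci. Both dose comparisons use the same 3 controls.

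Cre01.g011500 was the steady locus with the lowest difference at 0.5 nM. It had 126, 122 and 116 CPM at 0.5 nM, against 151, 149.5 and 149.4 CPM in the controls, a log2 difference of -0.31 ± 0.08 (SE). At 0.05 nM it stood at 131, 130.1 and 125 CPM, and neither dose overlapped the controls. Its between-group part was 94.4% of the sum of squares. Cre12.g527000 had 218, 220.4 and 211 CPM at 0.5 nM, against 266, 253 and 267 CPM in the controls (-0.28 ± 0.09), while at 0.05 nM, with 247, 269 and 247 CPM, it overlapped the controls.

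The highest differences at 0.5 nM belonged to g9771 and Cre06.g295450. g9771 had 367, 368 and 381 CPM at 0.5 nM, against 279.7, 309 and 316 CPM in the controls (0.30 ± 0.10). At 0.05 nM it gave 325, 348 and 350.5 CPM, above the controls and below 0.5 nM in every library. Cre06.g295450 had 149, 144 and 156 CPM at 0.5 nM, against 116, 124 and 126 CPM in the controls (0.29 ± 0.09), and 136, 146 and 141 CPM at 0.05 nM. Both doses lay above the controls, and the doses overlapped each other.

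Between the doses, 0.5 nM against 0.05 nM, the log2 differences of the steady loci lay between -0.24 and 0.22, and their median was -0.01. In edgeR's fit 0 of the 213 passed the threshold and 5 had an unadjusted p under 0.05. Of all loci tested 0.832% passed, 0.0135% higher and 0.819% lower at 0.5 nM, and 2002 of 14778 had an unadjusted p under 0.05. The count of steady loci was also 0 with RLE factors, against 0.968% of all loci, and with the replicate block, against 8.99%. DESeq2 called 1 steady locus, lower at 0.5 nM, against 4.37% of all loci. The 95% interval lay within 0.5 on the log2 scale for all 213, against 51.3% of all loci. The doses did not overlap in 31 steady loci, against 20.6% of all loci. Cre06.g282300 had 261, 259.6 and 224 CPM at 0.5 nM, against 296, 292 and 290.4 CPM at 0.05 nM (-0.24 ± 0.10), with 257, 254 and 236 CPM in the controls. Its level at the lower dose lay above the other 6 libraries. Cre05.g248300 went the other way, with 194, 203 and 223 CPM at 0.5 nM, against 179, 174 and 181 CPM at 0.05 nM (0.22 ± 0.10), and 221, 214 and 192 CPM in the controls. Cre16.g678200 had 109.8, 118 and 128 CPM at 0.5 nM, against 94.4, 102 and 111 CPM at 0.05 nM (0.21 ± 0.10), and its doses overlapped.

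In the authors' deposited table the steady loci carried small fold ratios, in which a value below 0 stands for a lower level in the treated group. That table rests on the same counts that chose the loci. The limit on the CV therefore bounds its ratios and calls too, and nothing is read from them. In the authors' deposited table the ratios of the 213 ran from -1.2 to 1.17 at 0.05 nM and from -1.24 to 1.23 at 0.5 nM, with 141 of them below 0 at each dose. None of the 213 (0 higher, 0 lower) had a corrected p under 0.05 at 0.05 nM in the authors' deposited table, against 41.2% of all loci listed, 21.4% higher and 19.9% lower. At 0.5 nM the authors' deposited table gave 1 steady locus as higher and 5 as lower, against 48.6% of all loci listed, 25.4% higher and 23.1% lower.

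How much of each library these loci took depended on the scale. Their summed share of assigned reads was 7.12%, 7.003% and 6.63% in the controls, 7.999%, 7.79% and 8.10% at 0.05 nM, and 8.29%, 8.11% and 8.10% at 0.5 nM. All 6 treated libraries lay above the 3 controls. Group means were 6.92% ± 0.254, 7.96% ± 0.157 and 8.16% ± 0.106 (SD, n = 3 each) in the order of dose, so that the share was 1.15 times that of the controls at 0.05 nM and 1.18 times at 0.5 nM. Exact 95% binomial (Clopper-Pearson) intervals, which cover counting error only, were narrow, from 7.11% to 7.13% in control replicate 1 and from 8.08% to 8.11% in replicate 3 at 0.5 nM. After TMM scaling the summed levels were 78423 ± 2770 CPM in the controls, 75717 ± 655 CPM at 0.05 nM and 75820 ± 4583 CPM at 0.5 nM, and the groups overlapped. The TMM factors were 0.827 to 0.946 in the controls and 0.998 to 1.13 in the treated libraries. The loci were chosen for a nearly constant level after division by these factors. Their share of assigned reads thus follows the factors by construction, and nothing is read from its difference between groups.

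**Figure D4:**
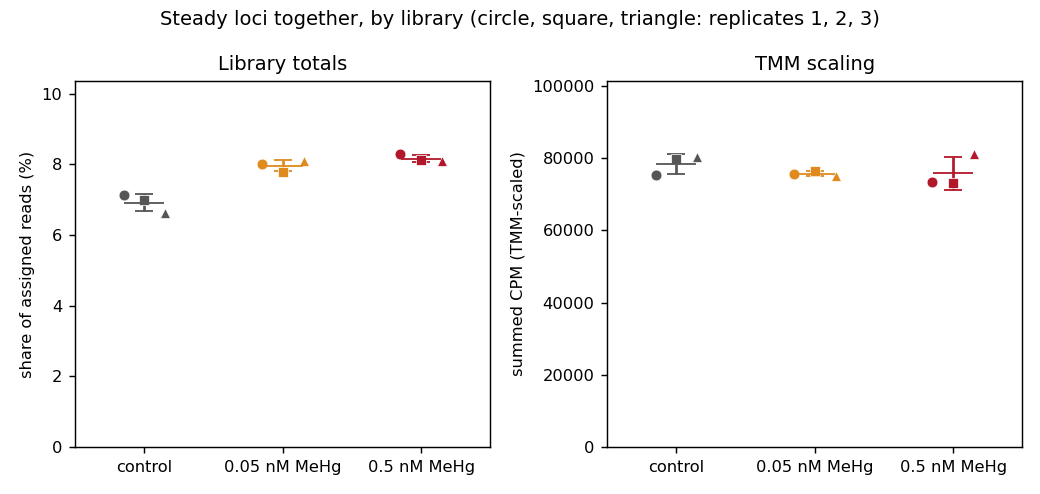
Summed level of the 213 steady loci in each library, as a percent of assigned reads (left) and as TMM-scaled CPM (right), 1 symbol per library, with group means and SDs (n = 3), both axes from 0. On the left the treated libraries lie at 7.79% to 8.29% and the controls at 6.63% to 7.12%, and on the right the groups overlap.

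Scaling by library totals alone moved the steady loci upward in the treated cultures. Their median log2 difference became 0.21 at 0.05 nM and 0.23 at 0.5 nM, and 212 of the 213 were above 0 at each dose, against 80 at 0.05 nM and 74 at 0.5 nM with TMM over all loci. The median of all loci moved in the same direction, to 0.31 at 0.05 nM and 0.36 at 0.5 nM, against 0.06 and 0.07 with the same TMM factors. This scaling moves every locus of a comparison by nearly the same amount. On that scale 68 passed edgeR's threshold at 0.05 nM and 87 at 0.5 nM, all of them higher, against 54% and 62.7% of all loci tested. The rule applied on library totals chose 294 loci, of which 103 were among the 213 (48.4% of the 213 and 35.0% of the 294). Upper quartile scaling chose 254, with 91 shared (42.7% and 35.8%). Size factors by the median of ratios (RLE) chose 170, with 160 shared (75.1% and 94.1%).

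**Figure D5:**
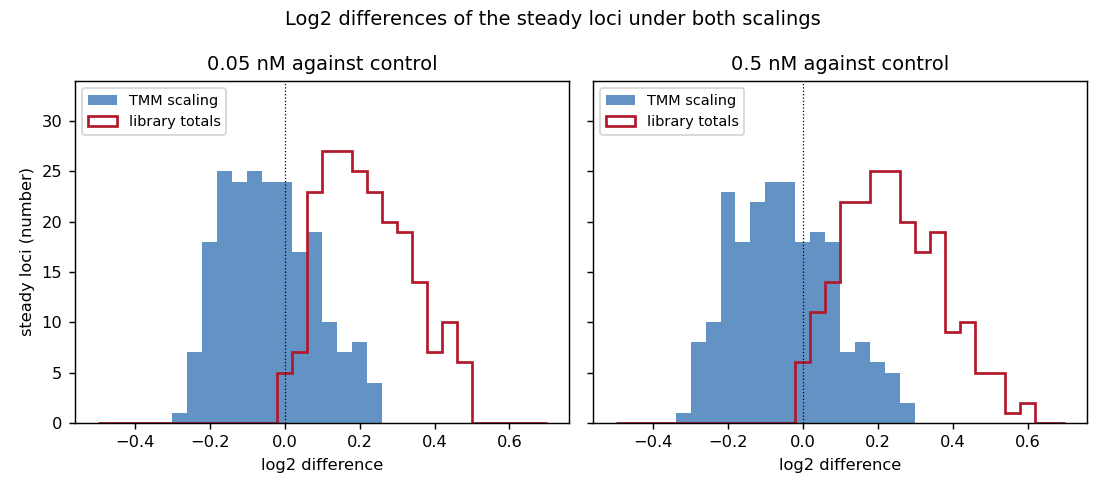
Number of steady loci by log2 difference at 0.05 nM (left) and 0.5 nM (right) against control, with TMM scaling as filled bars and library totals as an outline. The medians are -0.05 and -0.06 with TMM and 0.21 and 0.23 with library totals.

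Under all 4 of these scalings 48 loci met both limits. Of the 8 loci of lowest CV, Cre13.g603700, Cre06.g279400 and Cre17.g698000 were among them. The next in order of CV were Cre03.g204550, with 235, 242 and 235 CPM in the controls, 237.4, 237.3 and 236 CPM at 0.05 nM and 230.3, 209.9 and 234 CPM at 0.5 nM, and g10021, with 137, 145 and 136 CPM in the controls, 128, 129.6 and 131 CPM at 0.05 nM and 129, 139 and 123 CPM at 0.5 nM. In Cre03.g204550 replicate 2 at 0.5 nM stood below the other 8 libraries, which lay between 230.3 and 242 CPM. Cre03.g204550 and g10021 were named after their values were seen.

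The level in a library left out of the choice was also described. The rule was applied to 8 libraries at a time, and the level in the ninth was set against the mean of the 8. The ninth library was not independent of the choice. The TMM factors of these levels came from all 9 libraries, and the 8 included other replicates of its group. Loci not chosen were left out for a larger spread over the 8. Part of their gap to the chosen loci thus follows from the choice. Of the loci chosen without the ninth library, 99.5% lay within 20% of the mean of the 8 in each of the 3 libraries at 0.05 nM, against 69.3% to 77.7% of the abundant loci not chosen. At 0.5 nM it was 100% in replicate 1 and 98.6% in replicate 2, but 77.6% in replicate 3, against 49.0%, 57.9% and 35.5% of those not chosen. In the controls it was 80.5%, 94.4% and 85.5%, against 37.4%, 38.7% and 31.2%. The chosen loci held least well in replicate 3 at 0.5 nM and in control replicate 1. The abundant loci not chosen also lay closest to the mean in the libraries at 0.05 nM. Of the 213 steady loci, 168 were chosen in all 9 of these rounds.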

How the data were processed

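The authors deposited raw read counts per locus for each of the 9 libraries. TopHat2 (alignment) and HTSeq (counting) are named in the submitters' processing notes. The version of either tool, the build, the annotation and the strand setting were not given in the sources used, so overlapping loci and near-identical copies are uncertain. HTSeq's unassigned categories were left out. Reads outside loci were 1.02% to 1.24%, and ambiguous reads 0.264% to 0.331%, of these 2 kinds and the assigned reads together. Alignments at more than 1 place were a larger category, at 19.01% to 43.7% of the assigned count. The authors' deposited table repeats the counts (9 of 9 columns equal). It also holds normalized values and group means rounded to whole numbers, a score deposited by the authors and not used here, and signed fold ratios, p-values and corrected p-values, which the authors deposited and which are quoted as theirs.

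CPM were computed with TMM factors over all loci. Counts were tested in R 4.3.3 with edgeR 4.0.16 (quasi-likelihood, robust, 14778 loci kept by filterByExpr, all 9 libraries, group as the only term, 6 residual degrees of freedom, two-sided, Benjamini-Hochberg at 0.05), with DESeq2 1.42.0 as an alternative. The scripts were tested on simulated data. Intervals are 95%. The members and lists were chosen with earlier results of these data known. Loci were named by rule: the 8 of lowest CV, the 8 of highest mean, the 3 on each side of each limit and the 2 highest and 2 lowest differences per comparison. Lists by gene product and sequence features gave no result, since no names or sequences were at hand.

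Replicates of 1 number deviated together. The correlation of deviations from group means over all loci tested was 0.104 to 0.63 for all 9 same-numbered pairs, which was taken as pairing from the data, as the labels name no shared batch. Pairs of different number ranged from -0.49 to 0.371, and 7 of the 9 libraries correlated best with a library of their own number, so the pairing is weak for some.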

Additional observations from a re-analysis of the deposited data

How the results depend on the processing

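The number of steady loci was 425 at a minimum of 50 CPM, 104 at 200 CPM, 117 at a CV of at most 8% and 324 at 12%, and 188 to 277 with 1 library left out. It stayed within 1.5 times with the other scalings, with TMM over filtered loci (203) and with the population SD (248). With TMM scaling the summed level came to 7.84%, 7.57% and 7.58% of the scaled library in the order of dose, and with 1 library left out the share was 6.82% to 7.06% in the controls, 7.89% to 8.05% at 0.05 nM and 8.10% to 8.20% at 0.5 nM.

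At 0.05 nM the number of steady loci past the threshold was 13 with RLE factors, against 52.2% of all loci. It was 68 with library totals, against 54%, and 4 without a low-count filter, against 45.4%. It was 33 with DESeq2, against 50.4%, and 29 with the replicate block, against 63.6%. With 1 library left out it was 0 to 10, against 42.9% to 52.7%. It was 2 without control replicate 2 or 3, against 45% and 46.5% of all loci. It was 1 without replicate 1 or 2 at 0.05 nM, against 45.8% and 45.7%. It was 0 without replicate 3 at 0.05 nM, against 42.9%. At 0.5 nM it was 34 with RLE factors, against 60% of all loci, and 87 with library totals, against 62.7%. It was 56 with DESeq2, against 58.4%, and 48 with the block, against 69.6%. With 1 library left out it was 7 to 20, against 54.5% to 60.3%. It was 7 without control replicate 2, against 54.5% of all loci, and 11 without replicate 1 at 0.5 nM, against 54.7%. It was 12 without replicate 2 or 3 at 0.05 nM, against 58.2% and 58.1%. Between the doses DESeq2 called 1 steady locus, against 4.37% of all loci. Over all loci that comparison gave 123 calls, 0 with library totals, 646 with DESeq2, 1328 with the replicate block, and 0 to 383 with 1 library left out: 383 without control replicate 1, 200 without replicate 2 at 0.5 nM and 0 without any 1 of the other 7 libraries. The other counts over all loci stayed within 1.5 times. With library totals 4 log2 differences of named loci that had passed the threshold as negative became positive, to 0.027 in Cre01.g011500 and 0.0046 in Cre17.g723500 at 0.05 nM, and to 0.027 in g15721 and 0.014 in Cre12.g527000 at 0.5 nM. Among the loci named, 108 of the CVs recomputed under alternatives crossed the 10% limit and 386 did not. Library totals move every locus of a comparison by nearly the same amount, which by construction turns small negative differences positive. The cause of the other shifts was not tested. Depth limits the steady loci little, as their counting error has a median CV of 1.71%.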
